A study of Homo sapiens with 7 samples.

Results

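The genes described here are 8 components or targets of DNA mismatch repair: the MutS subunits MSH3 and MSH6, the MutL subunits PMS1, PMS2 and MLH3, the exonuclease EXO1, and the receptor genes TGFBR2 and ACVR2A. They were chosen by name for these roles and not by a rule on their measured values, though earlier results of these data were known. All 8 were found among the 20072 gene symbols of the deposited table. The cells were HCT116, an established human colorectal carcinoma line known for defective mismatch repair and unstable microsatellites. Log-phase cells were divided among 3 measurements, and every library came from that same line with no experimental treatment other than the cycloheximide that belongs to the polysome assay. The groups were transcription rate (TR, nuclear run-on followed by sequencing of the labelled nascent RNA, GRO-seq, n = 2), steady-state mRNA abundance (RA, RNA-seq of mRNA, n = 3) and translation activity (TA, sequencing of polysome-associated mRNA after cycloheximide, which holds ribosomes on their messages, n = 2). The study calls same-group libraries biological replicates, while GEO's labels do not say that they came from separate cultures, so the p-values measure the spread between these libraries, part of which may be technical.

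Mismatch repair removes the wrong base or the small loop left behind by DNA polymerase. MSH6 and MSH3 each pair with the same common MutS partner, the MSH6 complex reading base mismatches and small loops and the MSH3 complex reading larger loops. The MutL subunits PMS2, PMS1 and MLH3 likewise share a common partner, and PMS2 supplies the main strand-nicking activity of repair. EXO1 degrades the nicked strand, after which PCNA, the RFC clamp loader, RPA, DNA polymerase delta and DNA ligase I refill and seal the gap. When repair fails, runs of a single base gain or lose units at replication. TGFBR2, the type II receptor for TGF-beta, and ACVR2A, a type II receptor for activin, are known in colorectal cancer for coding runs that become frameshifted in this way.

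The longest single-base run of each coding sequence was read from the reference genome (GRCh37, GENCODE models) because such runs are what links these genes to microsatellite instability. The alleles carried by HCT116 cells were not analysed here. The 30-base windows below are on the coding strand, 5′ to 3′, with the run in capitals.
TGFBR2 (exon 3, chr3:30691862-30691891, + strand): attatgaaggAAAAAAAAAAgcctggtgag
ACVR2A (exon 3, chr2:148657030-148657059, + strand): tgattgtgtagAAAAAAAAgacagccctga
MLH3 (exon 2, chr14:75514593-75514622, - strand): agagaaagagAAAAAAAAAgaatctagcaa
MSH3 (exon 7, chr5:79970904-79970933, + strand): atgttagggacAAAAAAAAgggcaacattt
MSH6 (exon 5, chr2:48030629-48030658, + strand): gccggaagataCCCCCCCCttcttagagct
PMS2 (exon 11, chr7:6027146-6027175, - strand): gactggagaagAAAAAAAAgacgtgtccat
PMS1 (exon 5, chr2:190682799-190682828, + strand): tactcaactgcAAAAAAAtgtaaagatgaa

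All 7 windows lie wholly in coding exon. TGFBR2 held the longest run, 10 A, followed by MLH3 with 9 A. ACVR2A, MSH3 and PMS2 each had a run of 8 A, and MSH6 differed from these in having 8 C. ACVR2A and MLH3 each had 2 runs of at least 8 bases. The longest runs of PMS1 and EXO1 were of 7 bases. A run of at least 8 was present in 6 of the 8 members and in 5.73% of 19869 coding transcripts, or in 8.21% of the 6738 whose coding length fell between those of the shortest and longest member. The receptors were included for their runs, so their part in that count is not a finding, and the windows of MSH3, MSH6, PMS2 and MLH3 show that repair genes hold runs of the same kind.

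Values were in RPKM, reads over exons scaled to exon length and to the library's mapped reads, and levels of different genes are compared below only in that per-length unit. Low RPKM values were whole multiples of what 1 read is worth, from which total reads of 3391897 and 5629982 in the 2 TR libraries, 20299018 to 22532134 in the 3 RA libraries and 22421062 to 30805391 in the 2 TA libraries were recovered. Among the members MSH3 had the fewest reads, 43 to 126 per library, and TGFBR2 the most in any library, 2541. Epithelial markers checked the line's label: EPCAM, CDH1, KRT8, KRT18 and KRT19 had mean RA of 47.1 to 977 RPKM. The 8 markers of blood, fibroblast and endothelial cells ranged from 0 to 11.5 RPKM, with COL1A1 at the upper end while COL1A2, its usual collagen partner, was listed at 0.

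The members were transcribed at rates that differed less than their mRNA and polysome levels. Mean TR ran from 4.94 RPKM for MSH3 to 31.5 RPKM for MSH6, mean RA from 1.22 RPKM for MSH3 to 19.9 RPKM for TGFBR2, and mean TA from 0.464 RPKM for MSH3 to 12.2 RPKM for PMS1. With MSH3 set aside, the lowest means were 7.69 RPKM in TR (PMS2), 3.41 RPKM in RA and 3.01 RPKM in TA (both MLH3). The wider range of TA than of TR thus rested on MSH3. In TR, MSH6 and TGFBR2 were highest and overlapped each other; MLH3, EXO1, ACVR2A and PMS1 followed at 17.5 to 18.6 RPKM with each overlapping its neighbour, and then PMS2 and MSH3, which overlapped no neighbour. In RA the ranges of TGFBR2, MSH6, PMS1, EXO1 and PMS2 overlapped from one to the next. ACVR2A, MLH3 and MSH3 had lower means, and none of them overlapped its neighbour in that order. The wide range of EXO1 still reached down to them. Its RA library 2 value of 3.37 RPKM lay below every ACVR2A value and within the MLH3 range. MLH3 and ACVR2A thus lay beside PMS1 in transcription but well under it in mRNA.

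**Figure D1:**
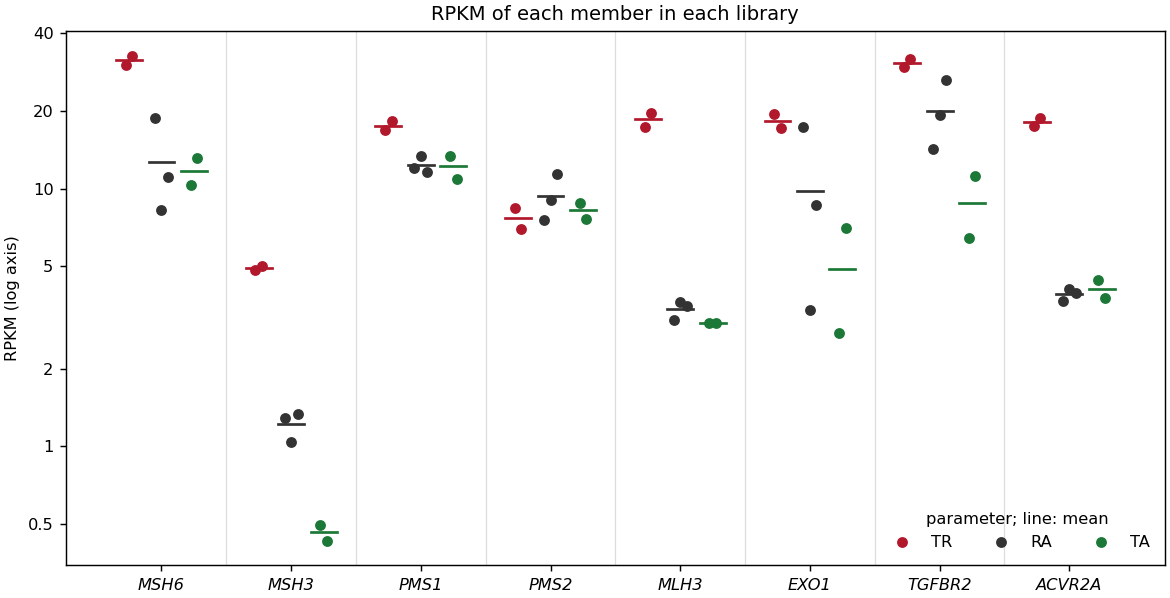
RPKM (log axis) of each of the 8 genes in the 2 TR, 3 RA and 2 TA libraries, with each point a library and each line the mean. MSH3, MLH3 and ACVR2A lie far lower in RA than in TR, PMS2 overlaps in all 3 groups, and EXO1 has widely spread RA and TA points.

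The first question was how much mRNA each gene held for its rate of transcription, expressed as the stability index, the log2 difference of RA from TR. Of the 8 members, 5 had lower RA than TR and 0 had higher RA, against 48.0% of all 14305 genes tested that were lower and 19.2% that were higher. The median index was -1.28 over the members and -0.58 over all genes tested. These calls used limma on log2(RPKM + 0.1), two-sided, with Benjamini-Hochberg adjusted p under 0.05 over all genes, and folds on that scale understate the change of low genes. TR, RA and TA libraries were each scaled to their own reads, so each index is a relative value. When each library was instead centred on its median gene, the median index moved from -0.58 to 0.09 and the calls over all genes from 6870 lower and 2743 higher to 4814 lower and 5066 higher. Under that centring 3 members, MSH3, MLH3 and ACVR2A, were lower and 1, PMS2, was higher. The data are from bulk cells, in which fewer cells holding an mRNA and less of it per cell cannot be told apart.

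The second question was how much of the mRNA was on polysomes, expressed as the translation index, the log2 difference of TA from RA. MSH3 and TGFBR2 were lower, 2 of 8 members, and 0 were higher, against 29.2% of genes tested lower and 6.66% higher. The median index was -0.16 for the members and -0.37 for all genes. Centring moved the latter to 0.13 and the calls over all genes from 4173 lower and 953 higher to 1404 lower and 2713 higher, and it left MSH3 as the 1 member called lower. From transcription to polysomes (TA against TR, which is the sum of the 2 indices and shares their libraries), 7 members were lower and 0 higher, against 57.5% and 17.0% of all genes. With centring the median over all genes went from -1.08 to 0.09, the calls over all genes went from 8231 lower and 2439 higher to 5044 lower and 5436 higher, and the members' calls became 3 lower and 2 higher. At an unadjusted limma p under 0.05, too, 0 members were higher in any of these 3 comparisons without centring. The members did not move together, and each is described by its role below.

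**Figure D2:**
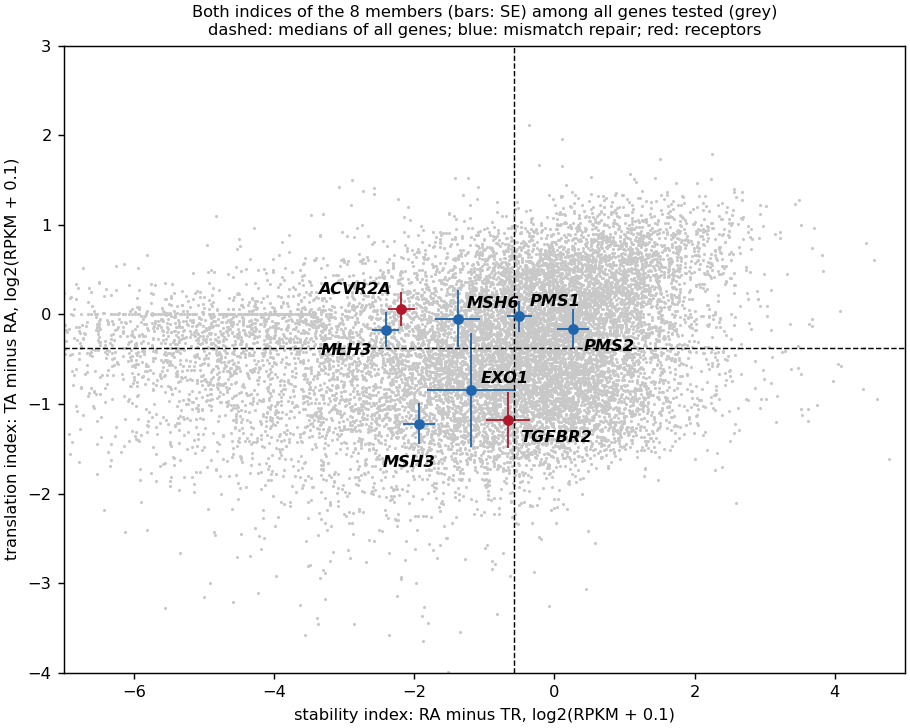
Stability index (RA minus TR, x axis) and translation index (TA minus RA, y axis), both in log2(RPKM + 0.1), of the 8 members with standard errors among the genes tested in grey, with dashed lines at the medians of all genes and 129 of 14305 genes beyond the axes. MLH3 (-2.41), ACVR2A (-2.19) and MSH3 (-1.94) lie farthest left, and MSH3 (-1.22) and TGFBR2 (-1.18) lie lowest.

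Of the MutS subunits, MSH3 was lower at both steps. Its TR was 4.84 and 5.03 RPKM, its RA 1.29, 1.04 and 1.33 RPKM, and its TA 0.496 and 0.431 RPKM. The 3 groups did not overlap, and each later group lay wholly below the one before. RA was 3.84-fold lower than TR (log2 difference -1.94 ± 0.23 SE, limma adjusted p = 0.00012) and TA a further 2.33-fold lower than RA (-1.22 ± 0.23 SE, limma adjusted p = 0.0069). Across both steps TA was 8.95-fold lower than TR (-3.16 ± 0.25 SE, limma adjusted p = 1e-05), and MSH3 ranked lowest of the members in all 3 parameters. With the replicate number as a block the TA against RA difference was -1.16, with limma adjusted p = 0.058.

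MSH6 was expressed at a higher level, and by the test it was lower at the first step. Its TR was 30.2 and 32.8 RPKM, its RA 18.8, 8.29 and 11.1 RPKM, and its TA 10.3 and 13.1 RPKM. All RA and TA values lay below both TR values, while RA and TA overlapped. RA was 2.61-fold lower than TR (-1.38 ± 0.32 SE, limma adjusted p = 0.0054), and TA differed from RA by -0.05 (95% interval -0.79 to 0.70). TA was 2.69-fold lower than TR (-1.43 ± 0.35 SE, limma adjusted p = 0.0062). The RA against TR call missed the threshold without TR library 1 (-1.44, limma adjusted p = 0.056), without TR library 2 (-1.32, limma adjusted p = 0.075) and with centring (-0.71, limma adjusted p = 0.068), and the TA against TR call did so without either TR library (-1.49 and -1.37, limma adjusted p = 0.052 and 0.067) and with centring (-0.25, limma adjusted p = 0.51).

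The ratio of the MutS subunits within a library does not depend on how that library was scaled. MSH6 stood at 6.24 and 6.52 times MSH3 in TR, at 14.7, 7.99 and 8.33 times in RA, and at 20.8 and 30.4 times in TA. The groups did not overlap, and their geometric means were 6.38, 9.92 and 25.1. The log2 difference in the ratio was 0.64 for RA against TR, 1.34 for TA against RA and 1.98 for TA against TR, and with a pseudocount of 1 RPKM, which is near or above the RA and TA levels of MSH3, these were 0.11, 0.55 and 0.66. Without RA library 1 the first was 0.35. An exact permutation test, two-sided, gave p = 0.2 for TA against RA and for RA against TR and p = 0.333 for TA against TR, the smallest values that these numbers of libraries allow, and adjusted p = 0.4 to 0.444 over the 12 ratio comparisons made.

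The meiotic MutS paralogs MSH4 and MSH5, which act in crossover formation and not in repair of replication errors, were transcribed with little mature message. MSH4 had a mean TR of 18.7 RPKM, a mean RA of 0.246 RPKM and a mean TA of 0.0334 RPKM, with a stability index of -5.82 ± 0.32 SE (limma adjusted p = 1.7e-06). MSH5 had mean levels of 4.92 RPKM (TR), 0.185 RPKM (RA) and 0.0461 RPKM (TA) (-4.16 ± 0.25 SE, limma adjusted p = 2.8e-06). Both calls stood with centring. MSH4 thus had a higher mean TR than MSH3 but a lower mean RA.

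**Figure D3:**
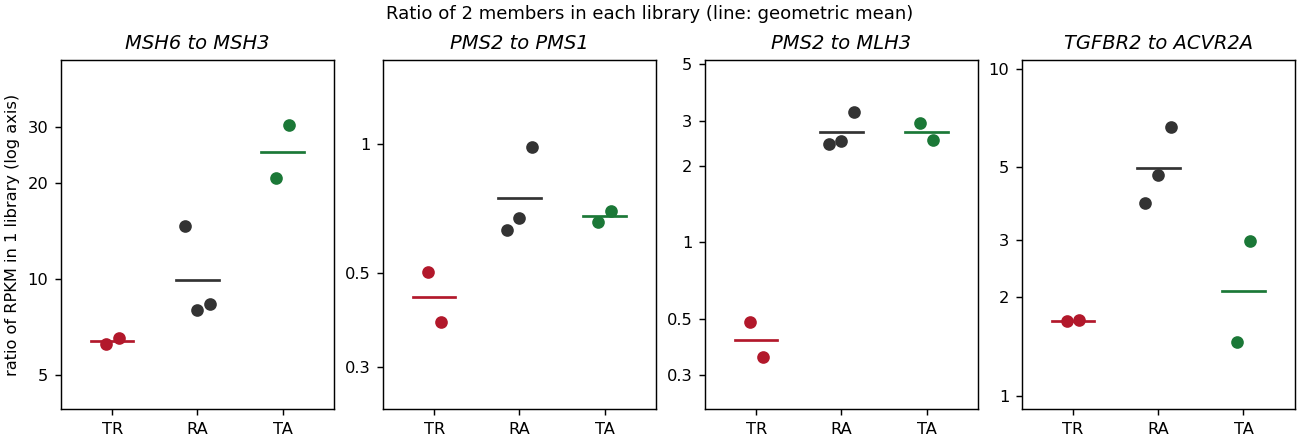
Ratio of the RPKM of 2 members within each library (log axes), with each point a library and each line a geometric mean. MSH6 to MSH3 is highest in TA, PMS2 to MLH3 passes from below 1 in TR to above 2 in RA and TA, and TGFBR2 to ACVR2A is highest in RA.

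Among the MutL subunits, MLH3 was the one with a large difference between transcription and mRNA. MLH3, which acts with its partner in meiotic crossing over and contributes in part to mismatch repair, had TR of 17.4 and 19.7 RPKM. Its RA was 3.1, 3.63 and 3.5 RPKM, and its TA 3.01 and 3.02 RPKM. RA was 5.31-fold lower than TR (-2.41 ± 0.19 SE, limma adjusted p = 1.5e-05), the lowest stability index of the 8 members, and it was called under every alternative run. The TA values lay just under the RA range, a difference of -0.17 (95% interval -0.62 to 0.28, limma adjusted p = 0.53) that did not pass the test.

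PMS1, a MutL subunit whose complex has no established main role in human mismatch repair, changed little. Its TR was 16.8 and 18.2 RPKM, its RA 12.0, 13.4 and 11.6 RPKM, and its TA 13.4 and 10.9 RPKM. RA was 1.42-fold lower than TR (-0.50 ± 0.18 SE, limma adjusted p = 0.033), and TA differed from RA by -0.02 (95% interval -0.43 to 0.38). The direction from TR flipped with centring, to 0.17 in RA (limma adjusted p = 0.45) and to a call of 0.65 in TA (limma adjusted p = 0.021) against -0.52 without it (limma adjusted p = 0.036). The RA call was also lost without TR library 1 or 2 (limma adjusted p = 0.07 and 0.13), without RA library 1 or 3 (0.053 and 0.1) and under the block (0.15), and the TA against TR call without TR library 1 or 2 (0.065 and 0.11), RA library 3 (0.061) or TA library 2 (0.18) and under the block (0.097).

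PMS2, the endonuclease subunit, was the 1 member that was not lower in any group comparison by the test. Its TR was 8.42 and 6.95 RPKM, its RA 7.56, 9.01 and 11.4 RPKM, and its TA 8.81 and 7.63 RPKM. All 3 groups overlapped. The stability index was 0.26 (95% interval -0.27 to 0.79, limma adjusted p = 0.34) and the translation index -0.16 (95% interval -0.69 to 0.36, limma adjusted p = 0.61). With centring PMS2 was called higher in RA than in TR (0.93, limma adjusted p = 0.0071) and in TA than in TR (1.27, limma adjusted p = 0.002). PMS2 has near-identical copies, so its reads are uncertain: the 8 listed PMS2CL and PMS2P symbols together held 39.2 RPKM (TR), 11.4 RPKM (RA) and 5.26 RPKM (TA), and how the authors' counting divided shared reads is not given in the sources used here.

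Within the MutL group the order of PMS2 and MLH3 changed between transcription and mRNA. PMS2 stood at 0.484 and 0.353 times MLH3 in TR, at 2.44, 2.49 and 3.25 times in RA, and at 2.93 and 2.52 times in TA. RA and TA overlapped, and both lay wholly above TR, by 6.54-fold for RA (exact permutation p = 0.2, adjusted 0.4, the smallest p possible being 0.2). PMS2 to PMS1 moved less, from 0.501 and 0.383 in TR to 0.63, 0.672 and 0.984 in RA and 0.656 and 0.698 in TA, a 1.71-fold higher geometric mean in RA than in TR (exact permutation p = 0.2, adjusted 0.4). PMS2 thus was transcribed below both MLH3 and PMS1, and lay above MLH3 and below PMS1 in every mRNA and polysome library.

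EXO1, the exonuclease that removes the mispaired strand, varied most of the members between libraries within RA and within TA. Its TR was 19.4 and 17.2 RPKM, its RA 17.3, 3.37 and 8.61 RPKM, and its TA 2.76 and 7.0 RPKM. RA library 1 reached the TR range while RA library 2 was 5.12-fold lower than it, and TA was wholly below TR but overlapped RA. The ratio of RA library 1 to RA library 2 was larger in size than in 99.1% of the 11632 genes with a mean RA of at least 1 RPKM. The stability index was -1.19 ± 0.64 SE (limma adjusted p = 0.13), the translation index -0.84 ± 0.64 SE (limma adjusted p = 0.33), and TA was 4.09-fold lower than TR (-2.03 ± 0.70 SE, limma adjusted p = 0.028). Single libraries decided these calls: without RA library 1 the stability index was -1.74 (limma adjusted p = 0.024), without RA library 2 the translation index was -1.45 (limma adjusted p = 0.04), and TA against TR missed the threshold without TR library 1 or 2 (limma adjusted p = 0.17 and 0.14), without TA library 1 (0.17), under the block (0.068) and with centring (0.27).

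The order of the RA libraries seen in EXO1 was shared by MSH6 and by the factors that complete repair. Most of the 15 later factors also serve DNA replication, and they include RPA4, which had a mean RA of only 0.0507 RPKM. Of the 15, 12 were highest in RA library 1 and lowest in RA library 2. So were EXO1 and MSH6 among the 8 members and 27.8% of the 11632 genes. In TA, library 2 exceeded library 1 for 13 of the 15 factors, against 51.6% of the genes. The median ratio of RA library 1 to 2 was 2.51 for the later factors, 0.899 for the members and 1.01 for all genes. This order was noticed after the values were seen, and its part in the spread of EXO1 and MSH6 was not tested. The other 6 members had RA ranges of 1.11-fold (ACVR2A) to 1.84-fold (TGFBR2).

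**Figure D4:**
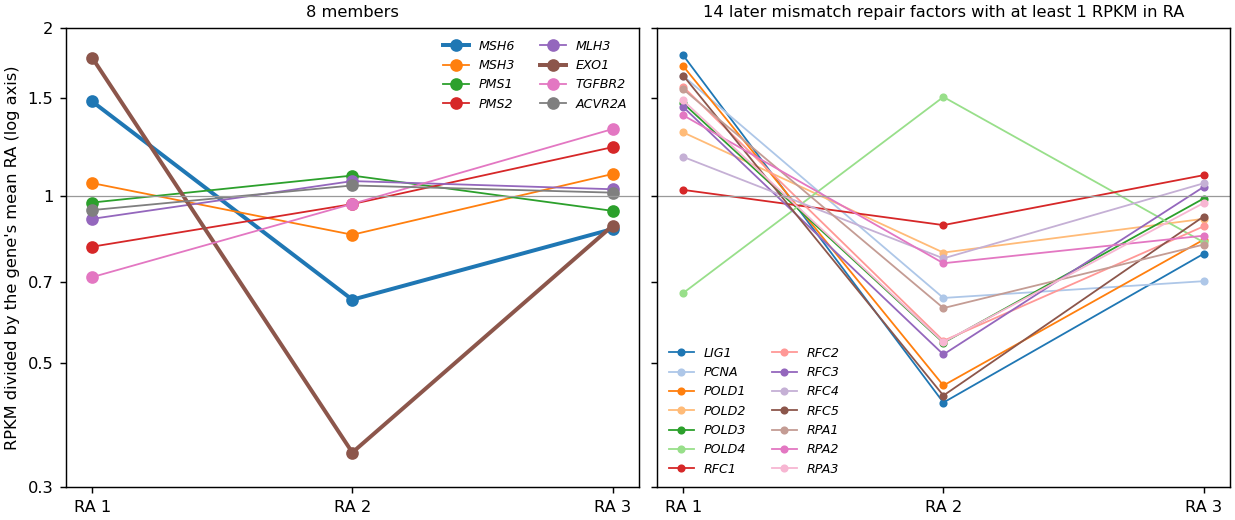
RPKM in each of the 3 RA libraries divided by the gene's mean RA (log axis), for the 8 members on the left and the 14 later repair factors with a mean RA of at least 1 RPKM on the right, with lines joining the values of 1 gene. EXO1 and MSH6 drop from RA 1 to RA 2 as most of the later factors do, and POLD4 runs the other way.

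By the test, 4 of the 15 later factors had lower RA than TR and 3 had higher RA, with a list median of -0.18, while with centring 3 were lower, 5 were higher and the median was 0.49. The lowest was RPA4 (-4.01 ± 0.30 SE, limma adjusted p = 8.8e-06), a little used alternative RPA subunit, at 2.24 RPKM in TR and 0.0507 RPKM in RA. PCNA, the sliding clamp, had the highest index, 0.96 ± 0.38 SE, which did not pass (limma adjusted p = 0.054). RPA1, the large subunit of the single-strand binding complex, had an index of the same size with a smaller error and passed (0.96 ± 0.35 SE, limma adjusted p = 0.039). In TA against RA, 1 factor was lower, POLD2, an accessory subunit of polymerase delta (-0.84 ± 0.28 SE, limma adjusted p = 0.046), and RPA1 had the highest value, 0.58 ± 0.35 SE (limma adjusted p = 0.22). With centring 0 were lower (0 also at an unadjusted limma p under 0.05) and RPA1 was called higher.

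The 2 receptor genes were set apart from each other by the step at which they differed. ACVR2A had TR of 17.5 and 18.7 RPKM, RA of 3.67, 4.07 and 3.95 RPKM, and TA of 4.41 and 3.75 RPKM. RA and TA overlapped and lay far below TR. RA was 4.55-fold lower than TR (-2.19 ± 0.19 SE, limma adjusted p = 2.2e-05), a call made under every alternative run, while TA differed from RA by 0.06 (95% interval -0.38 to 0.50).

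TGFBR2 had TR of 29.5 and 31.8 RPKM, RA of 14.2, 19.3 and 26.3 RPKM, and TA of 6.43 and 11.2 RPKM. Each group lay wholly below the one before. The stability index was -0.66 ± 0.31 SE and did not pass (limma adjusted p = 0.09), whereas TA was 2.26-fold lower than RA (-1.18 ± 0.31 SE, limma adjusted p = 0.022) and 3.58-fold lower than TR (-1.84 ± 0.34 SE, limma adjusted p = 0.0013). With centring the stability index was 0.01, the translation index -0.68 (limma adjusted p = 0.12) and TA against TR -0.67 (limma adjusted p = 0.096). The translation call was also lost without TR library 1 or 2 (limma adjusted p = 0.071 for each), RA library 3 (0.065) or TA library 1 (-0.78, 0.15) and under the block (-0.96, 0.063), and the stability index passed without RA library 3 (-0.88, limma adjusted p = 0.042) and under the block (-0.88, limma adjusted p = 0.029).

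TGFBR2 stood at 1.69 and 1.71 times ACVR2A in TR, at 3.88, 4.74 and 6.65 times in RA, and at 1.46 and 2.98 times in TA. The RA ratios lay above all of the others, and TR and TA overlapped. RA was 2.93-fold above TR and TA 2.38-fold below RA (exact permutation p = 0.2 for each, adjusted 0.4). Both transcripts are mostly untranslated, with UTRs making up 62.5% of the annotated TGFBR2 transcript and 70.5% of that of ACVR2A, against a median of 48.3% over coding transcripts. MSH6 (4.34%) and PMS1 (11.4%) had the shortest UTR shares of the members, then MSH3 (23.2%), EXO1 (26.4%), MLH3 (44.3%) and PMS2 (49.2%). The PMS2 share is of a GENCODE transcript of 5093 bases, 2586 of them coding. The exon length recovered from the PMS2 RPKM values was 2836 bases, so the model counted held far less UTR.

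The other receptors of the TGF-beta family were compared with these 2. Of 11 listed, 7 passed the filter on low values, and ACVR1C, ACVRL1, BMPR1B and AMHR2 did not. In RA against TR limma called 0 of the 7 lower, 0 also at an unadjusted p under 0.05, and 2 were higher: ACVR1, a type I receptor of activin and bone morphogenetic proteins (0.72 ± 0.25 SE, limma adjusted p = 0.031), and ACVR1B, the type I partner of ACVR2A in activin signalling (0.60 ± 0.17 SE, limma adjusted p = 0.012). In TA against RA 4 were lower (with centring, 1 lower and 1 higher, and 4 higher in RA against TR), among them TGFBR1, the type I partner of TGFBR2 (-0.91 ± 0.29 SE, limma adjusted p = 0.043), and ACVR2B, the paralog of ACVR2A (-1.10 ± 0.20 SE, limma adjusted p = 0.006). BMPR2 had the lowest translation index of the 7 (-1.13 ± 0.20 SE, limma adjusted p = 0.0059), close to that of TGFBR2. ACVR2B differed from ACVR2A at both steps in value, with mean levels of 8.9, 8.04 and 3.68 RPKM in TR, RA and TA against 18.1, 3.9 and 4.08 RPKM for ACVR2A. TGFBR1, ACVR1B and ACVR2B as partners or paralog of the members, and GDF11 and POLD4 elsewhere, were chosen for mention after their values were seen.

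Downstream of the receptors, 8 of 8 SMADs were tested, of which 4 had lower RA than TR, 3 had lower TA than RA and 0 were higher in either; with centring the counts were 2 lower and 3 higher in RA against TR, and 0 in either direction in TA against RA (2 lower at an unadjusted limma p under 0.05). SMAD6, an inhibitory SMAD, was lowest in both (-3.08 ± 0.41 SE, limma adjusted p = 0.00026, and -1.36 ± 0.41 SE, limma adjusted p = 0.035). SMAD5, which serves bone morphogenetic proteins, had the highest stability index (0.42 ± 0.25 SE, limma adjusted p = 0.17), and SMAD1 the highest translation index (-0.12 ± 0.19 SE, limma adjusted p = 0.64). Of 8 ligands 3 passed the filter: TGFB1 had mean levels of 33.3 (TR), 28.4 (RA) and 39.7 RPKM (TA), TGFB3 of 5.2, 0.439 and 0.243 RPKM, and 2 of the 3 (TGFB3 and GDF11) had lower RA than TR, with centring too. Of the TGF-beta target genes, SKIL, a repressor of SMAD signalling, had a stability index of 0.47 ± 0.41 SE (limma adjusted p = 0.33) and a translation index of -0.79 ± 0.41 SE (limma adjusted p = 0.16), and TGFBI was listed at 0 in RA and TA.

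Other genes known for coding repeats were compared as well. Of 17 listed, 15 were tested, and CASP5 and AIM2 were listed at 0 in every library. In RA against TR 4 of the 15 were lower and 0 higher, with a median of -0.28, against 3 lower, 2 higher and a median of 0.39 with centring. ASTE1 was the lowest (-3.28 ± 0.24 SE, limma adjusted p = 8.8e-06), at 17.7 RPKM in TR and 1.73 RPKM in RA, and TTK, a mitotic checkpoint kinase, was the highest (0.78 ± 0.50 SE, limma adjusted p = 0.2). In TA against RA 4 were lower and 0 higher, with a median of -0.27, against 2 lower, 2 higher and a median of 0.23 with centring. At an unadjusted limma p under 0.05, 0 were higher in RA against TR and 1 in TA against RA. RNF43, a Wnt pathway inhibitor, was the lowest (-1.84 ± 0.25 SE, limma adjusted p = 0.0035), and MARCKS the highest (0.52 ± 0.18 SE, limma adjusted p = 0.057). BMPR2 is in this list and in that of the receptors.

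**Figure D5:**
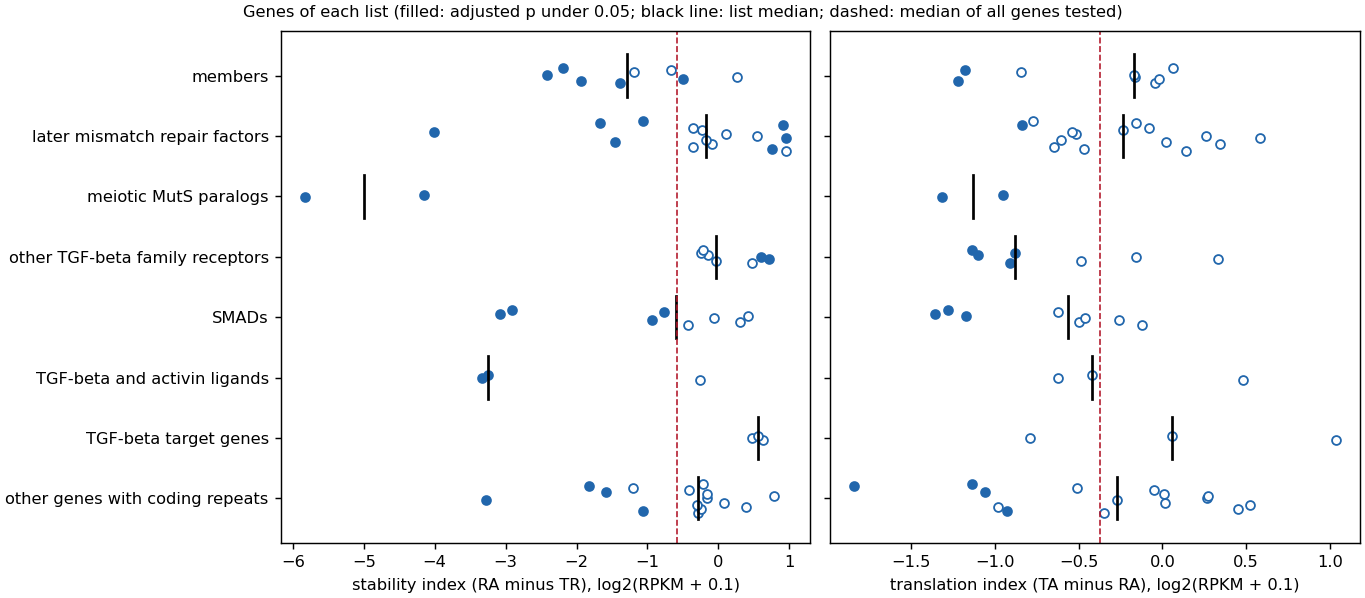
Stability index (left) and translation index (right), in log2(RPKM + 0.1), of the 8 members and of the tested genes of each list, filled where limma's adjusted p was under 0.05, with black lines at list medians and a dashed line at the median of all genes tested. The members' median stability index (-1.28) is below that of all genes (-0.58), and the 2 meiotic MutS paralogs lie farthest left.

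The start-site regions were read because MSH6 and EXO1 moved with replication genes among the RA libraries, and such genes often carry sites for E2F, the transcription factor family of S phase entry. RefSeq start regions (GRCh38.p14, 250 bases before to 50 after the start) were searched on both strands for TTTCCCGC and TTTGGCGC. One of these was found in MSH6 and one in MSH3, 2 of 8 members, against 2.75% of 27305 genes, and the windows below show them in capitals.
MSH6 (chr2:47783137-47783166, + strand): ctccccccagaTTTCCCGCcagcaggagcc
MSH3 (chr5:80654534-80654563, + strand): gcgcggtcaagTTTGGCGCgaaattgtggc

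A match is a description of letters and not a bound site. MSH6 had the order of RA libraries described above and MSH3 did not, while EXO1 had the order and held neither motif in this window.

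Some of the exon reads could belong to neighbours. Canonical exons of MSH6 overlapped annotated exons of any FBXO11 transcript, on the opposite strand, over 12.4% of their length. Those of ACVR2A overlapped annotated ORC4 exons over 8.19%. Whether strand was used in counting is not given in the sources used here. For the canonical exons of PMS1, PMS2, MLH3, EXO1 and TGFBR2 no overlap with another gene's annotated exons was found.

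For each member the gene with the smallest mean absolute difference of log2(RPKM + 0.1) over the 7 libraries was found among the genes tested. The closest match was C16orf70 to PMS1, with a mean difference of 0.05, and the loosest NFAT5 to TGFBR2, with 0.19. MSH3 was nearest to FAXC (0.17), MSH6 to SELO (0.14), PMS2 to HEATR5A (0.13), MLH3 to TMC8 (0.15) and ACVR2A to OPA3 (0.13). EXO1 was nearest to WDR76 (0.17), with 20.6, 7.98 and 4.81 RPKM in TR, RA and TA.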

How the data were processed

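The authors mapped reads to hg19 with TopHat, counted them over exons with HTSeq and deposited RPKM values for each library, with replicates kept apart (CASAVA is also listed in the submitters' processing notes). Tool versions, the gene annotation, the counting mode and the strand setting are not given in the sources used here. All 7 value columns were used, and no column was left out. From the RPKM values, log2(RPKM + 0.1) was fitted over all 7 libraries with limma 3.58.1 (R 4.3.3; eBayes with its trend option) for the 14305 genes whose mean reached 1 RPKM in any parameter, with Benjamini-Hochberg adjustment over all genes tested. Ratios of members were compared by an exact permutation test with SciPy 1.17.1.

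Library sizes were recovered from the step of low RPKM values. In simulated data 7 of 7 sizes were right, and 98.6% of 15838 genes with at least 20 reads were recovered exactly. In simulated libraries for RA against TR, limma called 98.5% of 200 genes changed 4-fold in the right direction and 27 of 13076 unchanged ones. The number of libraries and, for MSH3, the number of reads limit the precision.

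The members and lists were chosen with earlier results of these data known. Named genes were all 8 members, the list genes with the highest or lowest value of each index, list genes with an absent or near-absent level, and the nearest gene to each member, and some of these results are not reported here. Alternatives were other pseudocounts (0.01 and 1), no filter, a stricter filter, centring on the median gene, a replicate block, no trend, and leaving out libraries.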

Additional observations from a re-analysis of the deposited data

How the results depend on the processing

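Under the alternatives other than centring, the direction of the stability index was kept for every member wherever it was tested. Centring each library on its median changed the members called from 5 to 3 lower and from 0 to 1 higher in RA against TR, from 2 to 1 lower in TA against RA, and from 7 to 3 lower and from 0 to 2 higher in TA against TR. It reversed PMS1 (0.17) and TGFBR2 (0.01) in RA against TR, MSH6 (0.45), PMS1 (0.48), PMS2 (0.34) and MLH3 (0.33) in TA against RA, and PMS1 (0.65) in TA against TR. Requiring 1 RPKM of every parameter left 1 member lower in TA against RA, since it removed MSH3.

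The labels do not say whether same-numbered libraries of TR, RA and TA came from the same cells, and the main fits used no pairing. Over 10825 genes, the differences of replicate 1 from 2 correlated with r = 0.149 for TR and RA. The values were -0.562 for RA and TA and 0.02 for TR and TA. With the replicate block 0 members were lower in TA against RA by limma (2 at an unadjusted p under 0.05), all-gene calls there went from 4173 to 1387 lower and from 953 to 109 higher, and the PMS2 to PMS1 log2 ratio of TA to RA was 0.06 in place of -0.14.

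Leaving out 1 library gave 3 to 5 members lower in RA against TR, 1 to 3 in TA against RA (3 without RA library 2, with EXO1 called) and 4 to 7 in TA against TR. It reversed small differences in TA against RA to 0.12 and 0.27 for MSH6 (range -0.31 to 0.27), 0.04 and 0.13 for PMS1 (-0.17 to 0.13) and -0.05 for ACVR2A, and PMS2 in TA against TR to -0.04 and -0.0045 (highest 0.23). Ratios then ran from -0.27 to 0.06 for PMS2 to PMS1 and -0.10 to 0.14 for PMS2 to MLH3 in TA against RA, and from -0.22 to 0.81 for TGFBR2 to ACVR2A in TA against TR. A pseudocount of 1 gave -0.02 for PMS2 to MLH3 in TA against RA. With RA library 3 as the single RA library, chosen after seeing the data, MSH6 (0.07) and PMS1 (0.06) reversed in TA against RA. The cause of these changes was not tested. Where an arm was left with 1 library, limma assumed that it varied like the other groups. Depth was lowest in TR, at 3391897 and 5629982 reads.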
